A study of Homo sapiens with 9 samples.

Results

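The resting miRNA repertoire of ES-2 cells, an established human cell line derived from ovarian cancer, was described from the 3 input libraries among the 9 small RNA libraries of the series. These libraries hold RNA of cell lysate taken before any trapping, and the cells are labelled wild type and untreated. The other 6 libraries hold RNA retained on an RNA bait and were not analysed here. All libraries come from 1 cell line, and no label says whether replicates 1, 2 and 3 are separate cultures. The study's methods state biological replicates for its experiments in general. The libraries held 5065158, 3794799 and 5983577 miRNA counts. Reads of a mature miRNA that is encoded at several places in the genome were summed under its name, which left 2652 names, and levels are given as CPM, the counts of a name scaled to a library total of 1000000, as mean ± SD of n = 3 libraries.

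A miRNA is a short RNA that guides an Argonaute protein to complementary sites in target mRNAs, mostly in their 3'UTRs, where it lowers translation and mRNA stability. Bases 2 to 8 of the miRNA, the seed, make the main contact with the target, so miRNAs with the same seed form a family with overlapping targets. Each miRNA is cut from a hairpin whose arms give a 5p and a 3p strand, and usually either the 5p or the 3p strand is retained in Argonaute while the other is degraded. Many hairpins lie in clusters that are transcribed together, and some clusters are active in few tissues only.

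The mature sequences of the miRNAs that carried most of the counts are shown with the seed in capitals, grouped by shared seed. They were taken from RefSeq on build GRCh38.p14, which held a sequence for 2363 of the 2652 names and for 261 of the 288 names at 10 CPM or more.
miR-21-5p: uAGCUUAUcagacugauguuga
miR-100-5p: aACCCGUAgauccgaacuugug
miR-99a-5p: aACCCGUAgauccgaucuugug
let-7i-5p: uGAGGUAGuaguuugugcuguu
let-7a-5p: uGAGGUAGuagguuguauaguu
let-7f-5p: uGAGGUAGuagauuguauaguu
let-7g-5p: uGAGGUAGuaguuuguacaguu
miR-221-3p: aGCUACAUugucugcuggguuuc
miR-222-3p: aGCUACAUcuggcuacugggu
miR-92a-3p: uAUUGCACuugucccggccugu
miR-25-3p: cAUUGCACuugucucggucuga
miR-10a-5p: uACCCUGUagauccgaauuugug
miR-30a-5p: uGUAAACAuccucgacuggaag
miR-26a-5p: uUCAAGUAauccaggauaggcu
miR-7-5p: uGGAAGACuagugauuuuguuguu
miR-20a-5p: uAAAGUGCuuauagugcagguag
miR-17-5p: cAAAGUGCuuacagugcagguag

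The libraries were alike in outline, with replicate 1 apart from the others. Pearson's r of log2 CPM across the 288 names with a mean of 10 CPM or more was 0.997 between replicates 2 and 3 and 0.991 and 0.987 between replicate 1 and these, where names are not independent replicates. Of the 136 names at 100 CPM or more, 12 differed by more than 1.5-fold between replicates 1 and 2, 19 between replicates 1 and 3 and 0 between replicates 2 and 3. The chi-square statistic per degree of freedom was 148 and 192 for the pairs with replicate 1 and 10.4 for replicates 2 and 3, so every pair differed by more than counting alone would give. The 9 names with the let-7 seed were all highest in replicate 1, with a median ratio of 1.41 to the mean of replicates 2 and 3. Of all 288 names, 115 were highest there. Among strands at 10 CPM or more that were the less abundant strand of their hairpin, 38 of 65 were lowest in replicate 1, with a median ratio of 0.875. Of the leading strands at this level 65 of 161 were lowest there (median ratio 1.01), and of all 288 names 134 (median ratio 0.970).

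Few miRNAs made up most of the repertoire. At least 1 count in each library was found for 786 names, 1339 had none in any library, and 536 had more than 3 counts in each. A mean of 10 CPM or more, taken as expressed here, was reached by 288 names, 100 CPM by 136, 1000 CPM by 53 and 10000 CPM by 13. The 288 expressed names held between 99.88% and 99.89% of the counts of a library. The 10 leading names of each library took 75.9%, 77.9% and 77.4% of its counts, and the 100 leading names 98.7% ± 0.0644. Between 2 and 3 names were enough for 50% of the counts of a library, between 26 and 27 for 90% and between 111 and 116 for 99%. The Shannon diversity was that of 15.9 to 17.8 equally abundant miRNAs, highest in replicate 1. Replicate 2, the shallowest, had 1017 names with a count, and at that depth 971 and 980 names would be expected in replicates 1 and 3, so the deeper libraries did not hold a wider repertoire.

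**Figure D1:**
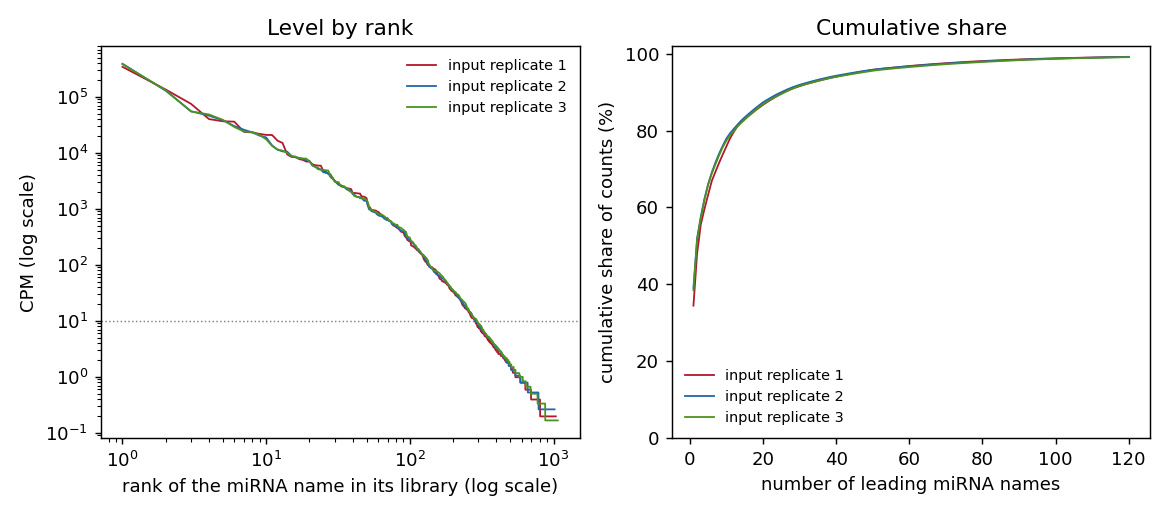
Left, CPM of each miRNA name against its rank in its library, both on log scales, with a dotted line at 10 CPM. Right, the cumulative share of the counts of a library, in percent, against the number of leading names. The 3 curves nearly coincide, and all reach over 75% at 10 names.

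The leading miRNA, miR-21-5p, is known as an abundant miRNA of many tumours. It held 344785, 391157 and 384683 CPM, lowest in replicate 1 and 2.83-fold above the next name. Its mature strand lies at chr17:59841273-59841294 on the forward strand, and its hairpin overlaps an exon of the protein-coding gene VMP1. miR-100-5p followed with 135486, 129152 and 131622 CPM and is encoded at chr11:122152275-122152296 on the reverse strand, in an intron of the lncRNA gene MIR100HG. These levels varied little, with a CV of 2.42% for miR-100-5p against 6.72% for miR-21-5p. let-7i-5p was next with 75219, 55510 and 54965 CPM, and replicate 1 was clearly above the others. It is encoded at chr12:62603691-62603712, where the annotation has an exon of the lncRNA gene MIRLET7IHG.

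miR-92a-3p, a product of the oncogenic miR-17-92 cluster, held 40228, 46270 and 48654 CPM. miR-10a-5p, encoded among the HOXB genes, held 36756, 38356 and 38833 CPM. miR-221-3p, known for targeting the cell cycle inhibitor p27, held 36187, 30203 and 29133 CPM. The ranges of these 6 leading names did not overlap between any neighbours in the order. Below them the order was less firm. The ranges overlapped in 14 of the 20 neighbouring pairs from rank 1 to rank 21, and the order was the same in all 3 libraries in 10 pairs.

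Ranks 7 to 10 went to miR-30a-5p (23652 ± 2557 CPM), miR-26a-5p (23391 ± 205), miR-222-3p (21724 ± 1864) and miR-7-5p (19427 ± 2238), and each of these overlapped with its neighbours in this group. miR-30a-5p lies in an intron of LINC00472 on chromosome 6, and miR-222-3p in an intron of MIR222HG on the X chromosome. Ranks 11 to 13 were let-7 members. let-7a-5p held 20971, 13587 and 13351 CPM, let-7f-5p held 13160 ± 2930 CPM, and let-7g-5p, from an intron of WDR82, held 11881 ± 2787 CPM. All were highest in replicate 1. Ranks 14 to 20 spanned 7336 to 9550 CPM and went to miR-221-5p, miR-10b-5p, miR-29a-3p, miR-30d-5p, miR-27a-3p, miR-155-5p and miR-20a-5p. The last pair differed by 1.00-fold, with miR-155-5p higher in 1 of 3 libraries.

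**Figure D2:**
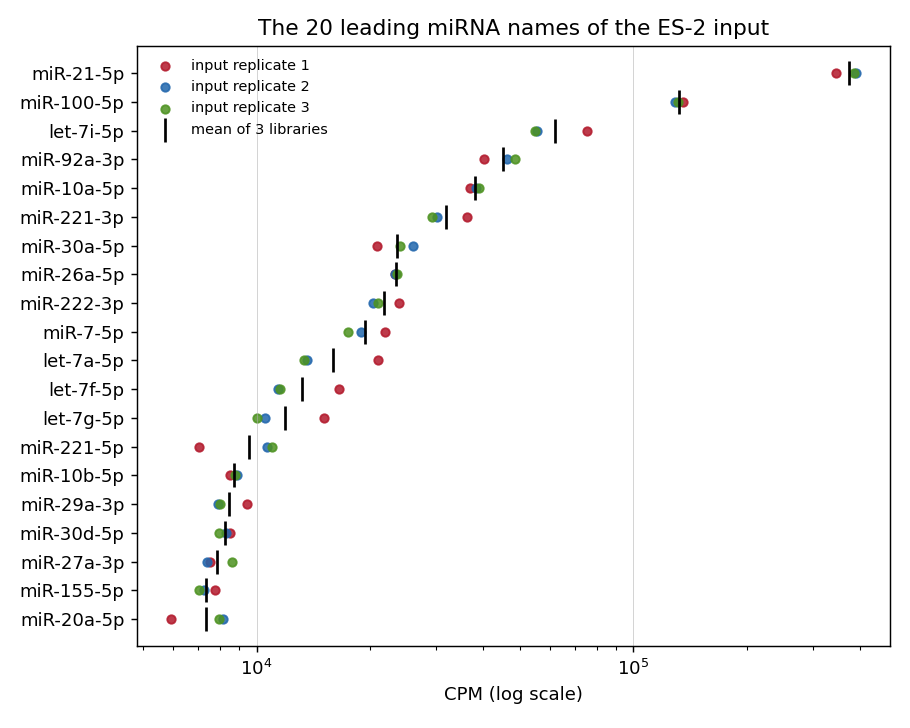
CPM on a log scale for the 20 leading miRNA names in each of the 3 input libraries, with a black mark at the mean. The points of ranks 1 to 6 do not overlap with those of the next name, and the let-7 members lie highest in replicate 1.

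Grouped by seed, the repertoire was narrower still. The 10 leading seed families took 84.8% ± 0.326 of the counts. Names with no RefSeq sequence stayed outside the families, among them miR-221-5p, miR-10b-5p, miR-30d-5p, miR-151a-3p and miR-320a-3p, and the 27 expressed names of this kind held 3.71% ± 0.166 of the counts. The 261 expressed names with a sequence had 206 different seeds, of which 30 were shared by several expressed names.

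The family of miR-21-5p took 34.5%, 39.1% and 38.5% of the counts of replicates 1, 2 and 3, and this miRNA alone made up nearly all of it. The miR-99/100 family, with seed ACCCGUA, took 13.9% ± 0.437. It consisted to 95.0% of miR-100-5p, whereas miR-99a-5p held 5152 ± 790 CPM and miR-99b-5p 1838 ± 430 CPM. miR-100-5p and miR-99a-5p differ by 1 base outside the seed.

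The let-7 family, known as repressors of RAS, MYC and LIN28 mRNAs and as markers of differentiation, ranked 3 with 13.3%, 9.50% and 9.40% of the counts of replicates 1, 2 and 3. Of the 10 families it had the widest spread relative to its mean, and its excess lay in replicate 1. Among its 11 names, 9 were expressed. let-7i-5p made up 57.8% ± 1.12 of the family, let-7a-5p 14.7% ± 0.869, let-7f-5p 12.2% ± 0.211 and let-7g-5p 11.0% ± 0.352. The other 5 held between 578 and 1682 CPM, namely let-7b-5p, let-7e-5p, let-7d-5p, let-7c-5p and miR-98-5p. Thus the makeup of the family was steadier between libraries than its total. let-7a-5p differs by 1 base from each of let-7c-5p, let-7e-5p and let-7f-5p, so reads with a sequencing error can pass between these names.

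miR-221-3p and miR-222-3p, with seed GCUACAU, together took 5.36% ± 0.560, in a ratio of 59.4% to 40.6%. The AUUGCAC family took 4.99% ± 0.402, of which miR-92a-3p made up 90.2%, and miR-25-3p (2680 ± 427 CPM), miR-92b-3p (2033 ± 90.1) and miR-32-5p (118 ± 11.6) the rest. miR-10a-5p was the only name with a sequence in its family, at 3.80% ± 0.109, and so was miR-7-5p, at 1.94% ± 0.224. The miR-30 members with a sequence took 3.01% ± 0.194, with 78.5% from miR-30a-5p, 18.3% from miR-30c-5p and 3.19% from miR-30e-5p. These shares leave out miR-30d-5p (8242 ± 281 CPM), which was above miR-30c-5p, and miR-30b-5p (433 ± 49.2), as both lack a sequence. Likewise the share of miR-10a-5p leaves out miR-10b-5p (8703 ± 191 CPM). miR-26a-5p and miR-26b-5p took 2.60% ± 0.0144, the steadiest of the 10 families, with 90.0% from miR-26a-5p. The family of miR-17-5p, which promotes proliferation through the cell cycle, ranked 10 with 1.10% ± 0.107. miR-20a-5p (7336 ± 1217 CPM) held 66.2% of it, ahead of miR-17-5p (1667 ± 197), miR-93-5p (1609 ± 74.1) and miR-106b-5p (377 ± 103). In 8 of these 10 families the leading member held more than 60% of the counts, the exceptions being those of let-7i-5p and miR-221-3p.

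The strands of a hairpin were mostly far apart. In 166 hairpins both arms had a name of their own in the table and together reached 10 CPM. The 5p strand was higher in all 3 libraries in 93 of them and the 3p strand in 70, and the order differed between libraries in miR-1249, miR-193b and miR-365a. The miR-365a order depends on how reads were split between names, because miR-365a-3p and miR-365b-3p have the same mature sequence. The same holds for the ratio of miR-199b, whose 3p strand has the sequence of miR-199a-3p. In some pairs a strand summed over several loci stands against a strand of fewer loci, which raises the fold. For example, miR-181a-5p, of 2 loci, was set against miR-181a-3p (123 ± 35.2 CPM) without miR-181a-2-3p (89.4 ± 10.1) of the other locus. The difference was at least 10-fold in all 3 libraries in 68 hairpins that favoured 5p and in 40 that favoured 3p. The median fold between strands was 24.3 with lesser strands of 3 counts or fewer in each library set to that floor, as applied to 27 hairpins, and 29.8 without this. At least 100-fold was reached by 44 hairpins on the former scale. Only 14 hairpins had strands within 2-fold of each other.

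On the 5p side, miR-155, an miRNA of activated lymphocytes and of many tumours, had no count of its lesser strand. Its 5p strand had 39286, 27502 and 42004 counts and its 3p strand 0 in each library, which makes the 5p strand at least 11688-fold higher. miR-100-5p had 686259, 490104 and 787568 counts against 15, 4 and 11 of miR-100-3p, a 67692-fold difference in mean CPM. let-7g-5p stood 13380-fold and miR-26b-5p 7417-fold above their 3p strands, which had 0 to 12 counts per library. miR-192-5p, with 0, 0 and 1 counts of its 3p strand, was at least 813-fold higher. It was named by its ratio before the floor was applied. With the floor, let-7i-5p (6755-fold) and miR-99a-5p (3292-fold), among others, stood further above their 3p strands. miR-21-5p stood 2137-fold above miR-21-3p, which at 175 ± 50.4 CPM was still the 116th of all names.

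On the 3p side, the sequence of the leading strand of miR-101, a repressor of EZH2, is shown with its seed in capitals, together with that of miR-29a, which targets collagen mRNAs.
miR-101-3p: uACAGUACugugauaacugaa
miR-29a-3p: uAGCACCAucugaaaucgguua
miR-101-3p had 5319, 5298 and 9195 counts against 1, 0 and 2 of miR-101-5p, at least 2114-fold more. miR-101-3p is summed over 2 loci, and miR-101-2-5p of chromosome 9, not part of this ratio, had 1, 1 and 0 counts. miR-27b-3p had 9789, 8688 and 14808 counts against 1, 3 and 2 of the 5p strand, at least 3554-fold more. miR-320a, miR-23a and miR-29a favoured 3p by 2577-fold, 1611-fold and 1568-fold. The miR-29a ratio hardly varied between libraries, from 1541 to 1594.

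Some hairpins kept both strands at high levels, and 4 lesser strands exceeded 1000 CPM. The sequences of those with a RefSeq entry are shown, since each strand of such a hairpin has a seed of its own.
miR-30a-3p: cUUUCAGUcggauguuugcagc
miR-423-3p: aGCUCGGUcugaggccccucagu
miR-423-5p: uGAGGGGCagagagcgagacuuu
miR-27a-3p: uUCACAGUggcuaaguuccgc
miR-27a-5p: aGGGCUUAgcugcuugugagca
miR-221-5p held 7015 CPM in replicate 1 and 9550 ± 2202 on average, rank 14, although miR-221-3p was 3.33-fold higher. miR-30a-3p held 4555 ± 486 CPM, 5.19-fold below its 5p strand, and miR-423-5p 2748 ± 396 CPM, 2.09-fold below its 3p strand. miR-27a-5p held 704, 1144 and 1426 CPM, 7.17-fold below its 3p strand. These abundant lesser strands were lowest in replicate 1. Lesser strands of all 166 hairpins together took 2.03%, 2.54% and 2.76% of the counts of replicates 1, 2 and 3.

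Among hairpins at 100 CPM or more the strands were nearest to equal in miR-142, miR-30e, miR-339, miR-374b and miR-330. miR-142-5p held 95.5 ± 15.1 CPM and miR-142-3p 85.3, 60.1 and 67.4 CPM, a ratio of 1.35 (from 1.28 to 1.45 between libraries). miR-30e-5p held 957 ± 21.4 CPM against 711 ± 51.0 for miR-30e-3p. In miR-374b the ratio of 5p to 3p was 3.22 in replicate 1 but 1.26 and 1.13 in replicates 2 and 3, because miR-374b-3p held 65.9 CPM in replicate 1 and 153 and 176 CPM in the others.

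**Figure D3:**
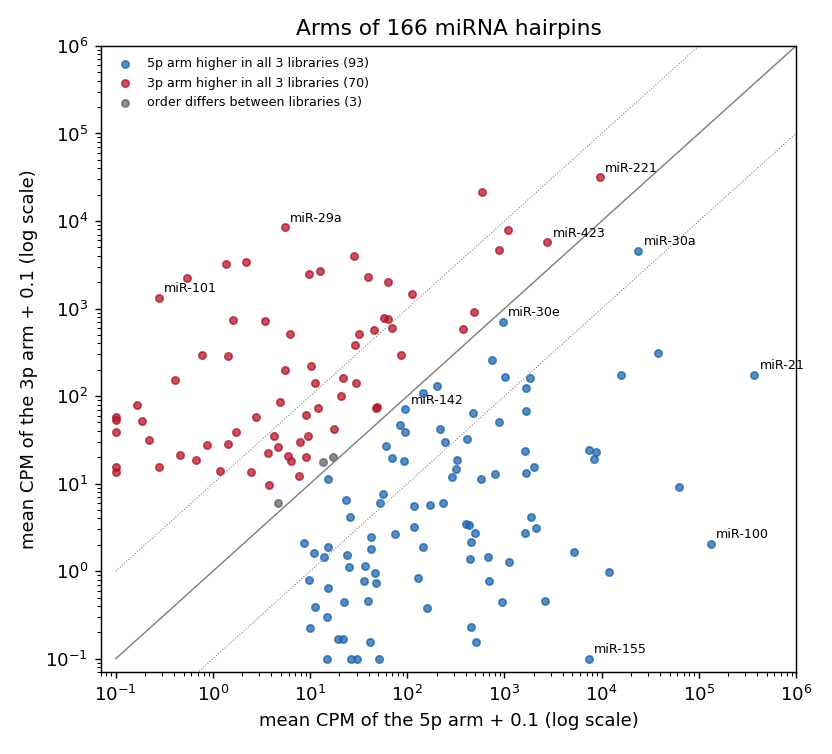
Mean CPM of the 3p arm against that of the 5p arm for 166 hairpins, each with 0.1 added, on log scales. The solid line marks equal arms and the dotted lines a 10-fold difference, and most points lie outside the dotted lines. The 93 blue hairpins had more 5p counts and the 70 red ones more 3p counts in all 3 libraries.

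Some miRNAs are encoded at several loci that give the same leading strand but different lesser strands, and these lesser strands can be counted per locus. Reads of the shared strands were split nearly evenly between loci, with the locus of most counts at a median of 1.04 times an equal share over 35 expressed names, so for most of these names the locus cannot be read from the shared strand. The most uneven was miR-138-5p, with 77.1% ± 1.00 of its counts at the chromosome 3 locus and 22.9% at that of chromosome 16. miR-194-5p had 62.8% ± 1.61 at chromosome 11, and miR-128-3p 58.3% ± 1.49 at chromosome 2. The lesser strand of miR-138 pointed the same way, since miR-138-1-3p of chromosome 3 held 62.0 ± 11.9 CPM and miR-138-2-3p had 0 counts in each library, at least 98.7-fold less.

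The clearest difference was found for miR-16, which is encoded with miR-15a on chromosome 13 and with miR-15b on chromosome 3.
miR-16-5p: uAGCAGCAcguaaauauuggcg
miR-16-2-3p: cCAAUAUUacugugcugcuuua
miR-16-2-3p, from chr3:160404797-160404818, had 4156, 3238 and 5750 counts, whereas miR-16-1-3p of chromosome 13 had 12, 7 and 5. Thus the former held 878 ± 73.5 CPM and 99.8% ± 0.102 of both. In addition, miR-16-2-3p was about as abundant as miR-16-5p (807 ± 106 CPM), the strand that both loci share, which usually leads. miR-15b-5p, the partner on chromosome 3, held 215 ± 32.7 CPM, and miR-15a-5p, the partner on chromosome 13, 11.1 ± 2.11 CPM.

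Other pairs of loci were uneven too, among those whose higher strand reached 10 CPM. miR-92a-1-5p, from the miR-17-92 cluster on chromosome 13, held 257 ± 66.8 CPM, whereas miR-92a-2-5p, from the paralogous miR-106a-363 cluster on the X chromosome, had 0 counts in each library, at least 409-fold less. miR-24-2-5p held 80.3 ± 12.8 CPM against 0.684 of miR-24-1-5p, miR-30c-2-3p 84.2 ± 5.78 against 1.58 of miR-30c-1-3p, and miR-29b-1-5p 68.6 ± 20.5 against 2.32 of miR-29b-2-5p. miR-7-1-3p, from the HNRNPK gene on chromosome 9, held 30.3 ± 3.84 CPM with 0 counts of miR-7-2-3p. let-7f-1-3p exceeded let-7f-2-3p by 12.3-fold. The least uneven was miR-125b, with 70.6 ± 17.0 CPM of miR-125b-1-3p on chromosome 11 and 37.6 ± 3.85 of miR-125b-2-3p on chromosome 21. In all 9 such pairs the order of the loci was the same in the 3 libraries, whereas below this level the order of miR-450a-1-3p (5, 11 and 6 counts) and miR-450a-2-3p (14, 3 and 10) changed. A lesser strand depends on its own stability too, so these values compare the strands and not transcription of the loci.

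Names can also share their whole mature sequence. miR-199a-3p and miR-199b-3p have the same mature sequence.
miR-199a-3p: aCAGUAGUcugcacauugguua
The first, with 2 loci, held 4621 ± 250 CPM and the second, with 1 locus, 2321 ± 147 CPM, that is 2311 and 2321 CPM per locus. The counts were therefore spread evenly over loci of equal sequence. Both names together held 6942 ± 396 CPM. The 5p strands, which differ in sequence, were unequal, with 880 ± 251 CPM of miR-199a-5p and 38.9 ± 7.07 of miR-199b-5p.

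Hairpins of a cluster did not have equal read levels of their mature strands. These levels include the preferences of ligation and, for strands encoded at several loci, reads of other loci. Of 33 known clusters, 29 had at least 2 members at 1 CPM or more, taking the higher strand of each. The highest member exceeded the lowest by a median of 9.49-fold (from 8.20 to 10.1 in single libraries). With members restricted to strands counted at 1 locus, the median was 4.91-fold. In 5 clusters all members lay within 2-fold, in 13 they spanned 10-fold or more and in 4 over 100-fold. Members under 1 CPM are left out of these folds, so some wide gaps are not counted. Among those left out were miR-141-5p (0.264 CPM), beside miR-200c-3p (31.3), and miR-214-5p (0), beside miR-199a-3p (4621). The 5 include both clusters of miR-181a and miR-181b, which have the same summed strands and so are not separate observations. They also include the miR-193b-365a cluster, where the level of miR-365a-3p depends on how reads were split with miR-365b-3p of the same sequence. Both names together held 38.4 ± 4.81 CPM, against 17.7 ± 1.90 of miR-193b-3p. Some of the wide clusters, such as miR-106a-363 and miR-15a-16-1, were led by a strand shared with another locus.

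The miR-17-92 cluster on chromosome 13, an oncogenic cluster that MYC activates, spanned 613-fold. Its members held 73.5 ± 3.54 CPM (miR-18a-3p), 154 ± 12.2 (miR-19a-3p), 228 ± 14.1 (miR-19b-3p), 1667 ± 197 (miR-17-5p), 7336 ± 1217 (miR-20a-5p) and 45051 ± 4344 (miR-92a-3p). Leaving out the strands shared with the X chromosome, miR-20a-5p remained far above miR-17-5p, miR-19a-3p and miR-18a-3p. The paralogous miR-106a-363 cluster was low in each member that only it encodes. miR-106a-5p held 26.3 ± 5.08 CPM and miR-20b-5p 14.7 ± 3.32 CPM, and miR-363-3p had at most 2 counts in a library. The related miR-106b-25 cluster within the MCM7 gene was more even, with 588 ± 38.6 CPM of miR-106b-3p, 1609 ± 74.1 of miR-93-5p and 2680 ± 427 of miR-25-3p.

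The miR-221-222 cluster was among the most even, with miR-221-3p 1.47-fold above miR-222-3p (from 1.39 to 1.52 between libraries). In the miR-23a-27a-24-2 cluster miR-27a-3p (7827 ± 680 CPM) led miR-23a-3p (3360 ± 313) and miR-24-3p (2817 ± 175). Of the paralogous cluster, miR-27b-3p held 2232 ± 276 CPM but miR-23b-3p only 288 ± 22.1 CPM. In the miR-183-96-182 cluster, known from sensory organs and raised in many carcinomas, miR-182-5p (2129 ± 129 CPM) and miR-183-5p (1890 ± 74.2) were near each other and miR-96-5p (447 ± 47.0) below. miR-181a-5p and miR-181b-5p differed by 1.02-fold.

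miR-99/100 hairpins are encoded beside let-7 hairpins in 3 clusters. miR-100-5p stood 20.9-fold above miR-125b-5p (6330 ± 593 CPM), which is encoded in the same cluster on chromosome 11 and also on chromosome 21. Reads of both loci of miR-125b-5p are summed in this value. The let-7 strand of this cluster, let-7a-5p, is summed over several loci as well. miR-99a-5p stood 7.57-fold above let-7c-5p (680 ± 104 CPM). miR-99b-5p (1838 ± 430), let-7e-5p (802 ± 130) and miR-125a-5p (2015 ± 442) lay within 2.51-fold, and all of these were highest in replicate 1. In the miR-424-503 cluster on the X chromosome, miR-424-3p (602 ± 5.35 CPM) and miR-503-5p (442 ± 28.5) were well above miR-450b-5p (51.1 ± 2.37), miR-450a-5p (31.5 ± 2.26) and miR-542-3p (13.5 ± 3.12). In the miR-532-502 cluster, also on the X chromosome, miR-532-5p led with 286 ± 20.7 CPM and miR-660-5p followed with 159 ± 43.7. miR-224-5p (451 ± 105) exceeded miR-452-5p (90.6, 86.4 and 98.3 CPM), miR-130b-5p (313 ± 9.43) exceeded miR-301b-3p (1.69 ± 1.01), and miR-132-3p (100.4 ± 3.85) exceeded miR-212-5p (3.30 ± 0.991). miR-29a-3p (8434 ± 863) exceeded miR-29b-3p (411 ± 28.8). miR-191-5p and miR-425-5p changed order. miR-191-5p held 1649, 914 and 787 CPM, while miR-425-5p held 900.5, 868 and 895.

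**Figure D4:**
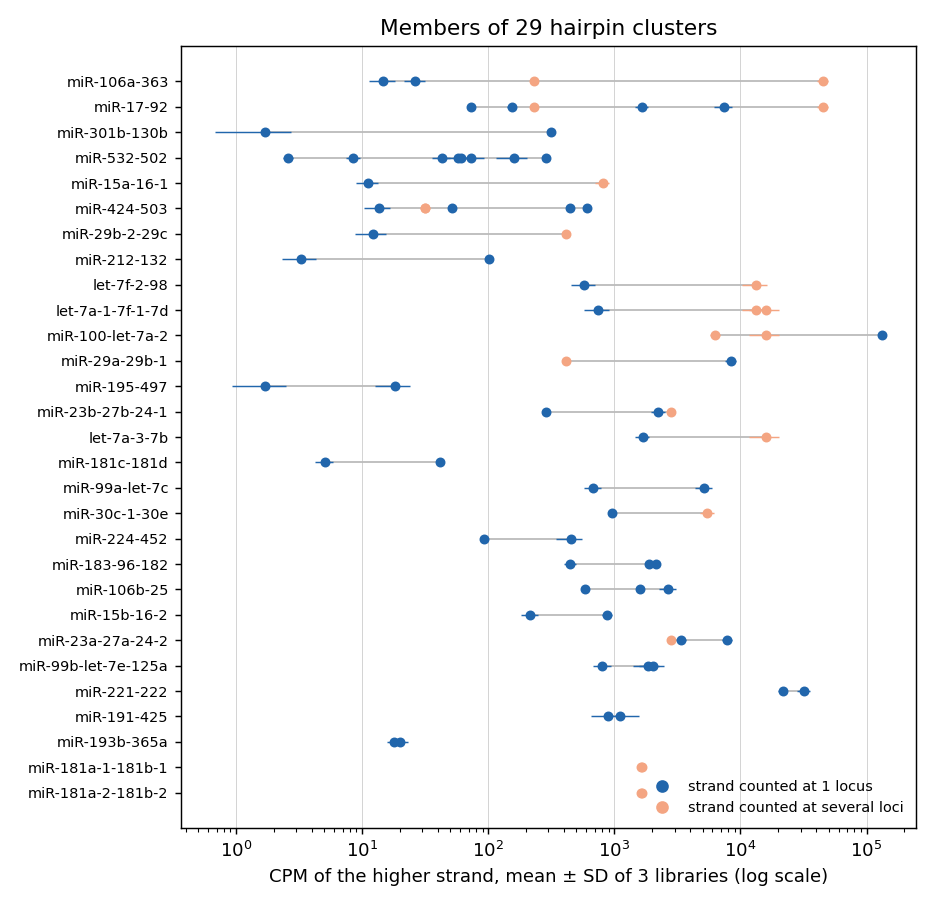
Mean CPM ± SD of 3 libraries, on a log scale, of the higher strand of each hairpin in 29 clusters, ordered by the fold between highest and lowest member. Strands that are counted at 1 locus are blue and strands summed over several loci orange. Members under 1 CPM are not shown. The highest and lowest members shown lie from 1.02-fold to 3061-fold apart. The widest gap is that of the miR-106a-363 cluster, where the orange strands are shared with other loci.

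By distance alone, hairpins with at most 10000 bases between neighbours on a strand formed 82 clusters with 298 of the 1562 hairpins that have RefSeq coordinates. At least 1 expressed name counted at 1 locus was found in 36 of the clusters, and 33 held none at even 1 CPM. Clustered hairpins gave 30.8% ± 1.45 of the counts of names with 1 locus, and 57.2% ± 0.462 with miR-21-5p, an unclustered hairpin, left out of the total.

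The abundant names also differed from the rest in their first base. Argonaute proteins are known to bind a U or an A at this base better than a C or a G. A U was found in 36.9% of the 2363 names with a sequence, in 31.1% of the 1187 with no count, in 45.6% of the 261 that were expressed and in 60.4% of the 48 at 1000 CPM or more. A G fell from 13.8% of all names to 4.98% of those expressed, and to 0 of 48 at 1000 CPM or more. Of the counts of names with a sequence, those that begin with U held 74.2% ± 1.01, with A 23.3% ± 0.899, with C 2.35% ± 0.120 and with G 0.103% ± 0.00948. Without miR-21-5p the share of U was 57.9% and that of A 38.1%. The A came largely from miR-100-5p, miR-221-3p and miR-222-3p. These shares describe names that share ancestry and are not a test.

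Within hairpins the pattern was the same. In 138 hairpins with a sequence for both strands and the same order in all libraries, the leading strand alone began with U in 65 and the lesser strand alone in 18. A C began the lesser strand alone in 45 and the leading strand alone in 15. The leading strand did not differ in length, since the median was 22 bases for leading and lesser strands.

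To describe which tissue-restricted miRNAs were absent, 17 lists were used, each of miRNAs known from certain tissues or loci. Of their 317 names, 256 (80.8%) had 3 counts or fewer in each library, against 71.6% of all 2652 names, and 205 had 0 in each. Many of the 256 came from the chromosome 19 placental cluster (66 of 66 names) and the DLK1-DIO3 cluster (86 of 92). The pooled share therefore does not describe the other lists. A floor of 3 counts corresponds to 0.592, 0.791 and 0.501 CPM in replicates 1, 2 and 3. Such a limit reflects counting alone, because PCR copies of a molecule are counted as separate reads. More than 3 counts in each library were found for 47 names.

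Some lists were wholly or largely at the floor, against 71.6% of all names. The list of H19 and IGF2 loci (3 of 4 names) was near that share, and the miR-34 list (5 of 6) holds few names. The chromosome 19 placental cluster, a primate-specific array of hairpins, had 66 of 66 names at the floor, with summed counts of 0, 1 and 1 over the whole list. The pluripotent list, with miR-302a to miR-302d, miR-367 and miR-371a to miR-373, had 16 of 16 names at the floor and 1 count in all. The gonad and X cluster list, which holds miR-202 and the miR-506 to miR-514 hairpins known from testis and ovary, had 21 of 22 names at 0, and the remaining one, miR-514a-3p, had 2, 0 and 7 counts. The H19 and IGF2 loci, imprinted and active in fetal tissue, gave 5 counts in replicate 1 and 0 in the others, all in miR-483-5p. The imprinted DLK1-DIO3 cluster, known from embryo, brain and stroma, had 86 of 92 names at the floor and 0 above it in all libraries. Its summed counts were 87, 13 and 8, so most came from replicate 1, where miR-381-3p had 31 and miR-543 had 11 counts. The miR-34 miRNAs, targets of the tumour suppressor p53, had 5 of 6 names at the floor, and miR-34a-5p had 4, 3 and 8 counts.

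The epithelial list bears most on the label of a carcinoma-derived line. The miR-200 miRNAs repress ZEB1 and ZEB2 and so maintain the epithelial state. In ES-2 cells miR-200c-3p held 36.7, 30.0 and 27.1 CPM and miR-200b-3p 4.15, 3.16 and 2.34 CPM, and 10 of 13 names were at the floor, a share near that of all names. miR-141-3p, which is encoded beside miR-200c, had 1, 0 and 0 counts, miR-429 had 0, and miR-205-5p, known from squamous and basal epithelium, had 1, 1 and 0. The whole list summed to 36.5 ± 5.51 CPM.

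The striated muscle list summed to 3.26 ± 0.224 CPM, with miR-133a-3p at 0 and miR-1-3p at 6, 11 and 11 counts. Of the liver list, miR-122-5p had 13, 8 and 7 counts. Of the endothelial list, miR-126-3p had 27, 55 and 15 counts, highest in the shallowest library. The blood list was split. miR-155-5p held 7341 ± 377 CPM and the strands of miR-142, a miRNA of blood cells, 95.5 and 70.9 CPM, whereas miR-223-3p, miR-144-3p and miR-150-5p had at most 3 counts in a library and miR-451a, of red cells, 8, 7 and 11. miR-486-5p had 5, 7 and 8 counts. miR-223-3p marks myeloid cells, miR-144-3p red cells and miR-150-5p lymphocytes, so miR-142 was measured while these markers were at the floor.

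Other lists had members at high levels. In the neural list, miR-128-3p held 1884, 1402 and 1499 CPM, miR-138-5p 181, 228 and 224 CPM and miR-9-5p 155, 171 and 186 CPM, with 10 of 20 names at the floor. The others above it in each library held between 2.35 and 10.7 CPM, apart from miR-138-1-3p, and were miR-129-5p, miR-9-3p, miR-137-3p, miR-129-2-3p and miR-128-1-5p. miR-124-3p, the defining miRNA of neurons, had 0 counts in each library. In the pancreatic and endocrine list, miR-7-5p held 21874, 18924 and 17483 CPM, while miR-375-3p, the defining miRNA of islets, had 2, 0 and 2 counts, and miR-216b-5p and miR-217-5p of the exocrine pancreas held 4.37 and 3.88 CPM. In the smooth muscle and stroma list, miR-199a-3p held 4621 ± 250 CPM, but miR-143-3p (5.33, 6.85 and 7.69 CPM) and miR-145-5p (0.925 ± 0.345) were low, and miR-214-3p and miR-214-5p, encoded beside miR-199a on chromosome 1, had 0 counts in each library. In the eye and pigment list, miR-182-5p, miR-183-5p and miR-96-5p were high and miR-204-5p low (5.33, 3.43 and 4.85 CPM), as were the lesser strands miR-182-3p and miR-183-3p. In the intestine and kidney list, miR-192-5p held 511 ± 28.9 CPM, miR-194-5p 55.6 ± 7.03, miR-215-5p 14.9 ± 4.22 and miR-194-3p 7.46 ± 2.90.

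The HOX loci, whose miRNAs follow the position of a tissue along the body axis, were the list with the highest sum, 47307 ± 1176 CPM. miR-10a-5p of the HOXB locus led with 37982 ± 1088 CPM, and miR-10b-5p of the HOXD locus held 8703 ± 191 CPM. miR-615-3p of the HOXC locus held 201 ± 30.6 CPM, miR-196b-5p of the HOXA locus 46.9 ± 8.66 and miR-196a-5p, of the HOXB and HOXC loci, 38.9 ± 7.21. Of the lesser strands, miR-10a-3p held 307 ± 69.1 CPM, miR-10b-3p 23.0 ± 4.32 and miR-615-5p 5.36 ± 1.45. Members from all 4 loci were thus measured.

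**Figure D5:**
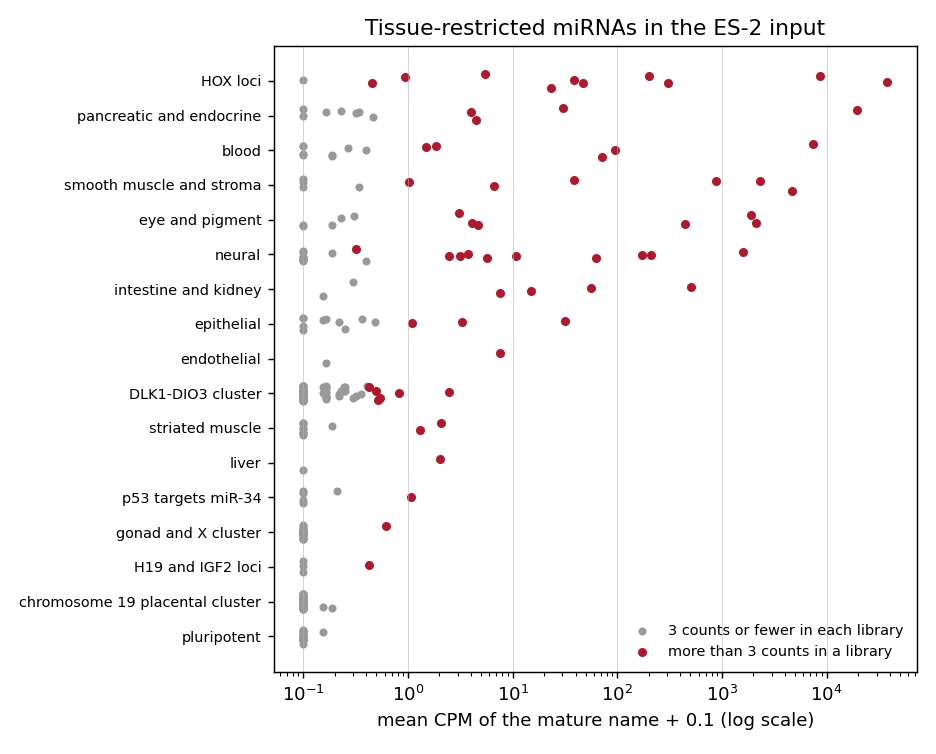
Mean CPM with 0.1 added, on a log scale, of each mature name in 17 lists, ordered by the highest member. Grey points had 3 counts or fewer in each library (256 names), red points more in at least 1 library. The pluripotent and placental lists are all grey, and the HOX, pancreatic, blood, stroma, eye and neural lists reach over 1000 CPM.

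Finally, the miRNAs differed in how well the 3 libraries agreed on them. The median CV over the 288 expressed names was 12.9%. It was 16.5% for the 152 names between 10 and 100 CPM, where counting alone would give 8.27%, and 9.15% for the 40 names between 1000 and 10000 CPM, where counting alone would give 0.875%. The counting value takes each read as an independent molecule, which PCR copies are not. The steadiest names at 100 CPM or more were miR-181b-5p (1610, 1625 and 1636 CPM), miR-26a-5p (23246, 23302 and 23626), miR-424-3p (596, 603 and 607), miR-425-5p and miR-10b-5p. The least steady were miR-222-5p (306, 615 and 851 CPM, CV 46.3%), miR-374b-3p, miR-191-5p (CV 41.7%), miR-197-3p (453, 776 and 955 CPM, CV 34.9%) and miR-27a-5p (CV 33.3%). Replicate 1 was the outermost library in all 5 of these, lowest in 4 and highest for miR-191-5p. This is near the general share, since replicate 1 was lowest in 63 and highest in 61 of all 136 names at 100 CPM or more.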

How the data were processed

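The authors deposited raw counts of reads at each mature miRNA locus, with no normalization. The submitters' processing notes name cutadapt 1.18, Bowtie2 2.2.6, featureCounts 1.6.3 and hg38, and the study's methods name miRBase. Libraries were made by adaptor ligation and PCR without stated molecular identifiers, and ligation favours some ends, so an order of levels is an order of reads.

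Groups and replicate numbers followed the sample titles. Loci of a name were summed and divided by the total of the library. With 1 group there was no test. A CV is the SD over the mean. Chi-square used names with 20 counts or more. Sequences and coordinates are from RefSeq, GRCh38.p14. Overlap with host genes used the hairpin's symbol in GENCODE on GRCh37, which gives no single match for many hairpins, so hosts were given only for named miRNAs.

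The miRNAs, clusters and tissue lists were chosen with earlier results of these data known. Named were the 20 leading names, leading members of the 10 leading families with others at 100 CPM or more, cluster members at 100 CPM or more, the 5 highest, 5 lowest and 5 most equal strand ratios at 100 CPM or more, the 5 highest and lowest CVs and list members over the floor. Locus-specific strands, lesser strands, low cluster members and defining markers at 0 were named after their values were seen. Scripts used Python 3.11.15 and pandas 2.3.3, with factors of edgeR 4.0.16 and DESeq2 1.42.0 as alternatives, and were tested on simulated data.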

Additional observations from a re-analysis of the deposited data

How the results depend on the processing

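Of 42 alternatives for 7 results, 29 stayed within 1.5-fold (counts of names or hairpins) or within 1 SD between libraries (shares and folds, or between values without 1 replicate for the CV), and 13 did not. Counted in any library, 1313 names were detected, and at a mean of 10 CPM or more 288. The share of the 10 leading names, 77.1%, was 74.0% with each locus on its own and 65.9% with miR-21-5p left out. The hairpins led by 5p were 59 at 100 CPM or more and 171 with any count. The median fold within clusters was 6.71 for members at 10 CPM or more, 4.91 for strands with 1 locus, 7.56 with both arms summed, and from 8.10 to 9.34 without 1 replicate, where the cause was not tested. The median CV was 25.8% over every name with a count in each library and between 5.74% (without replicate 1) and 14.1% (without replicate 2), so replicate 1 set much of the spread. The share of the 10 leading families lay between 84.7% and 85.0%. List names at the floor numbered 205 with 0 counts required and 289 with a mean under 10 CPM, against 256. TMM factors lay between 0.969 and 1.04. No paired analysis was possible because there is 1 group and no test. A count of 0 limits a miRNA to under 0.791 CPM.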
